A study of Mus musculus with 8 samples.

Results

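The genes described here encode the kinases Akt1 and Akt2 and the subunits of the 2 mTOR complexes: Mtor, Mlst8, Rptor, Rictor, Mapkap1, Prr5 and Prr5l. These 9 genes were taken by platform gene symbol, each through the probe set with the highest mean over all arrays, from 19935 genes tested. Expression was measured on Affymetrix gene arrays in mouse embryonic stem cells of the line R1, 48 hours after transfection; the growth protocol names pluripotent conditions, while the sample titles mention differentiation. A control siRNA was used for 3 arrays, siRNA 1 against CnAb1 for 3 arrays, and a different one, siRNA 2, for 2 arrays. All groups share the cell line, the culture and the transfection, and no untransfected cells were analysed here. Whether the replicates came from separate cultures is not stated in the labels, so p-values measure only how these samples vary, and that may be technical. Values are log2 expression, and the number of arrays limits their precision.

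CnAb1 is a splice variant of the calcineurin beta catalytic subunit, encoded by Ppp3cb, and is reported to act on Akt through mTOR complex 2 (mTORC2). The mTOR kinase, Mtor, works in a pair of complexes that share the subunit Mlst8. Complex 1 (mTORC1) is defined by Raptor (Rptor) and drives protein synthesis and restrains autophagy when nutrients and growth factors are present. Complex 2 is defined by Rictor and Sin1 (Mapkap1), which presents substrates, and carries Protor-1 (Prr5) or Protor-2 (Prr5l). It phosphorylates Akt in the hydrophobic motif near its end, beside the phosphorylation of the activation loop by Pdpk1. In embryonic stem cells this pathway supports growth and self-renewal, and mTOR inhibition can bring the cells into a paused state. Most of this regulation is by phosphorylation and location of proteins, which arrays do not measure. The question here was whether the transcripts of these components differ when CnAb1 is targeted.

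The arrays were alike, with correlations between pairs from 0.9949 to 0.9989, and their medians lay between 8.12 and 8.20. Their lower quartiles over the tested genes ran from 7.07 to 7.25, lowest and highest on siRNA 1 replicates 1 and 2. The stem cell label was borne out by 10 of 10 markers, whose means over all arrays lay between 10.68 (Dppa4) and 13.75 (Dppa5a). The mean level of these markers was 12.56 to 12.63 in control cells, 12.53 to 12.65 with siRNA 1 and 12.53 to 12.57 with siRNA 2. Utf1 differed by 0.102, Zfp42 by -0.121 and Nanog by 0.063 for the average of both siRNAs. Of the 10 markers 4 lay higher and 6 lower in that comparison, with a median of -0.037 and 0 called. Among all genes 43.9% lay lower, and 60.5% of those at or above the median expression. With siRNA 2 both arrays lay below all controls for 4 of the 10 and above them for 1. Over all genes 15.9% and 13.4% lay so, and 2487 and 1042 of the 9968 at or above the median expression. The mean of 14 fibroblast (feeder cell) markers was 9.35 to 9.46, 9.39 to 9.57 and 9.44 on both arrays in that order, from Lum at 5.95 to Vim at 13.43. Of these 14 markers 3 lay higher and 1 lower at an unadjusted p under 0.05 for the average of both siRNAs. Over all genes 6.31% reached that p in either direction. Of the 14, 0 were called. The collagen genes Col1a2 (0.169, SE 0.063) and Col1a1 (0.138, SE 0.052) lay above all controls on all 5 siRNA arrays. That held for 2.49% of all genes, and for 173 of the 9968 at or above the median expression. Twist1 differed by -0.141 (SE 0.055). Each of these differences is for the average of both siRNAs, with limma adjusted p = 0.769. The mean of 8 macrophage and blood cell markers was 8.04 to 8.37, 8.14 to 8.56 and 8.19 to 8.29. Cd14 differed by 0.162, Csf1r by 0.094 and Cd68 by -0.098. All 3 lists were highest on siRNA 1 replicate 1. Their part in the results below was not tested.

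Ppp3cb, the targeted gene, read 10.70, 10.55 and 10.64 in control cells, 10.52, 10.68 and 11.09 with siRNA 1, and 11.07 and 11.16 with siRNA 2. Both siRNA 2 arrays and siRNA 1 replicate 3 lay above every control, and siRNA 1 replicates 1 and 2 did not. The difference from control was 0.309 (SE 0.111) for the average of both siRNAs, with adjusted p = 0.769 in limma. The annotation ties this probe set to Ppp3cb as a whole, not to the CnAb1 splice variant, and whether the knockdown worked cannot be read from these values.

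None of the 9 genes passed the test in any comparison. Between control and the average of both siRNAs, 5 lay higher and 4 lower, from -0.071 for Rictor to 0.134 for Akt1, with a median of 0.003 against 0.011 over all genes tested. The split moves with the scaling: 7 of the 9 lay lower with the arrays centred on their medians, and 2 with each array's lower quartile in the fit. Limma, with Benjamini-Hochberg adjustment over all 19935 genes, called 0 of the 9, where 0% of all genes were called, and gave the 9 adjusted p-values from 0.769 to 0.995. At an unadjusted p under 0.05 there were 0 of the 9, against 6.31% of all genes. The 95% intervals of all 9 lay between -0.24 and 0.275, so a difference beyond 1.21-fold lay outside the interval for each of them. The spread within groups was 0.0561 for Prr5 and 0.119 for Rictor at its extremes, with a median of 0.0839 over the 9 against 0.0854 over all genes. For 0 of the 9 did all 5 siRNA arrays lie on the same side of all controls, where 4.74% of all genes did.

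With siRNA 1 the 9 genes ran from -0.101 (Mtor) to 0.087 (Akt1), 5 higher and 4 lower, and 0 had an unadjusted p under 0.05, against 5.33% of all genes. The siRNA 1 arrays lay wholly above the controls for 0 of the 9 and wholly below for 0, against 6.21% and 4.56% of all genes (10.8% in either direction). With siRNA 2 they ran from -0.076 (Rictor) to 0.181 (Akt1), and the arrays lay apart from the controls for 2 of the 9, Akt1 and Mapkap1, against 29.4% of all genes. Between the siRNAs they ran from -0.12 (Prr5l) to 0.146 (Rptor), and 0 of the 9 had an unadjusted p under 0.05, against 4.48% of all genes. Their arrays lay apart for 0 of the 9, against 5.54% of all genes with siRNA 2 higher and 9.89% with it lower (15.4% in either direction). Limma called 0 of the 9, and 0% of all genes, in each of these comparisons. The comparisons with control share the control arrays.

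**Figure D1:**
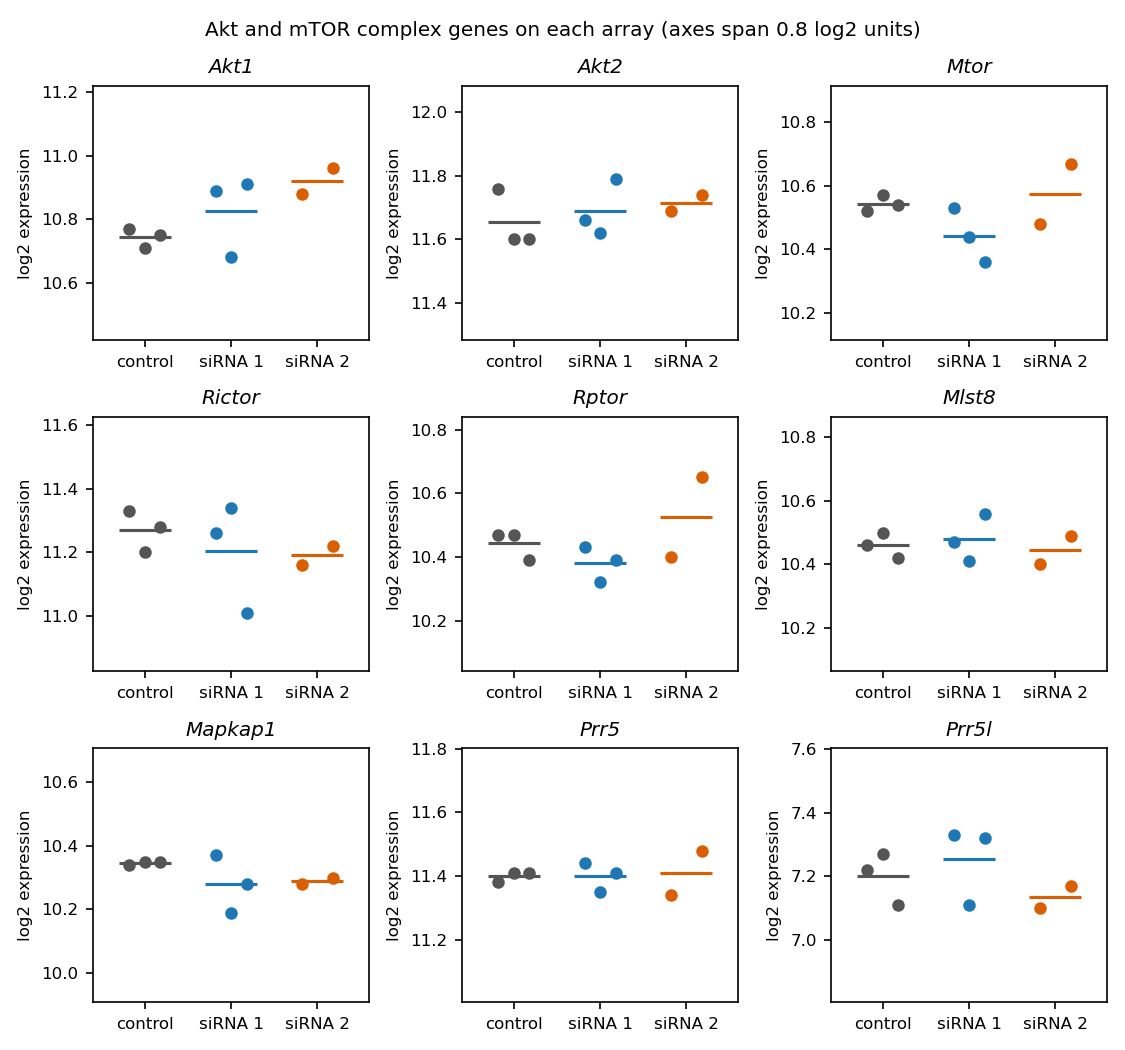
Log2 expression of each of the 9 genes (vertical axis, every panel spanning 0.8 log2 units) in control, siRNA 1 and siRNA 2 cells; points are arrays and bars are group means. Akt1 is above every control on 4 of 5 siRNA arrays, and the groups overlap in most other panels.

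Akt1, the most widely expressed of the Akt kinases and the one tied to cell growth and survival, lay farthest from control for the average of both siRNAs and for siRNA 2. It read 10.77, 10.71 and 10.75 in control cells, 10.89, 10.68 and 10.91 with siRNA 1, and 10.88 and 10.96 with siRNA 2. That placed 4 of 5 siRNA arrays above every control, while siRNA 1 replicate 2 lay below them all. Group means were 10.74 ± 0.03 (SD, n = 3), 10.83 ± 0.13 (n = 3) and 10.92 ± 0.06 (n = 2). Akt1 thus differed from control by 0.134 for the average of both siRNAs (SE 0.063, 95% interval -0.007 to 0.275, limma adjusted p = 0.769), a fold of 1.1. The siRNA 1 group lay 0.087 above control (SE 0.07, adjusted p = 0.87 in limma) and the siRNA 2 group 0.181 (SE 0.078, adjusted p = 0.812 in limma). Leaving out 1 siRNA 1 array moved the siRNA 1 value between 0.045 (without replicate 3) and 0.162 (without replicate 2). The siRNA 2 value had an unadjusted p of 0.0437 in limma, which 6.07% of all genes reached in that comparison. For siRNA 2 both arrays lay above all controls, as they did for 13.4% of all genes. Among the 9968 genes at or above the median expression, 1042 lay so.

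Akt2, the Akt kinase best known for insulin-stimulated glucose uptake, has a pair of probe sets on the array, and they gave nearly the same difference. The brighter probe set read 11.76, 11.60 and 11.60 in control cells, 11.66, 11.62 and 11.79 with siRNA 1, and 11.69 and 11.74 with siRNA 2. The groups overlapped, since control replicate 1 was the second highest of all arrays. Akt2 differed from control by 0.052 for the average of both siRNAs (SE 0.061, adjusted p = 0.861 in limma), or by 0.105 without control replicate 1, 0.024 without control replicate 3 and 0.026 without control replicate 2 or siRNA 1 replicate 3. This probe set's identifier, 10374364, lies between those of Vstm2a and Egfr, and 19 of its 20 nearest named neighbours are genes of chromosome 11. RefSeq places Akt2 on chromosome 7, and an Akt2 pseudogene, Akt2-ps, on chromosome 11 next to Egfr (GRCm38.p6). The other probe set, 10551393, lies among identifiers of chromosome 7 genes in 17 of 17 cases. It read 11.50, 11.53 and 11.48 in control cells, 11.52, 11.46 and 11.63 with siRNA 1, and 11.57 and 11.56 with siRNA 2. Here control replicate 1 lay between the other controls, and siRNA 1 replicate 2 was the lowest array. With it in place of the brighter probe set, the same difference was 0.051 (SE 0.051, adjusted p = 0.838 in limma). Which transcript the brighter probe set reads was not tested.

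**Figure D2:**
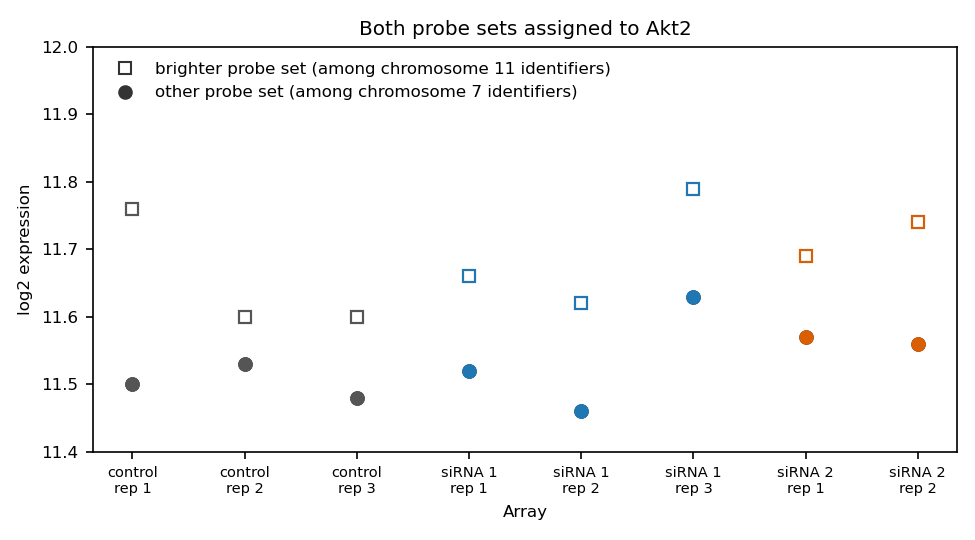
Log2 expression (vertical axis) of both probe sets assigned to Akt2 on each of the 8 arrays (horizontal axis, coloured by group); open squares are the brighter probe set and filled circles the other. Control replicate 1 stands at 11.76 on the brighter probe set and at 11.50, among the other controls, on the second.

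Mtor, the kinase shared by the complexes, read 10.52, 10.57 and 10.54 in control cells, 10.53, 10.44 and 10.36 with siRNA 1, and 10.48 and 10.67 with siRNA 2. The siRNA 2 arrays fell on either side of the controls, and siRNA 1 replicate 3 was the lowest of all. Mtor differed from control by -0.101 with siRNA 1 (SE 0.067, adjusted p = 0.87 in limma) and by 0.026 with siRNA 2 (SE 0.075, adjusted p = 0.965). The difference between the siRNAs was 0.127 (SE 0.075, 95% interval -0.04 to 0.294, adjusted p = 1 in limma). It rests on siRNA 2 replicate 2: without that array it was 0.032, and the siRNA 2 difference from control was -0.069. Without siRNA 2 replicate 1 these were 0.222 and 0.121. Mlst8, the small subunit that stabilises the kinase domain, read 10.46, 10.50 and 10.42 in control cells, 10.47, 10.41 and 10.56 with siRNA 1, and 10.40 and 10.49 with siRNA 2. Its groups overlapped, and the average of both siRNAs differed from control by 0.003 (SE 0.053, 95% interval -0.115 to 0.121).

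Rptor, the scaffold that brings substrates to mTORC1, read 10.47, 10.47 and 10.39 in control cells, 10.43, 10.32 and 10.39 with siRNA 1, and 10.40 and 10.65 with siRNA 2. Its highest array was siRNA 2 replicate 2, 0.212 above the mean of all arrays. The siRNA 2 group mean of 10.53 ± 0.18 (SD, n = 2) therefore rests on 1 array: the difference from control was 0.08 (SE 0.08) with both and -0.047 without replicate 2. Rptor differed by -0.065 with siRNA 1 (SE 0.072) and by 0.146 between the siRNAs (SE 0.08, adjusted p = 1 in limma), which was 0.018 without siRNA 2 replicate 2 and 0.273 without replicate 1. Mtor and Rptor were both highest on siRNA 2 replicate 2, with Pearson's r of 0.82 between them over the 8 arrays, the highest of all pairs among the 9 genes. Such correlations share the arrays and their normalization and are given as a description.

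Rictor, the defining scaffold of mTORC2, read 11.33, 11.20 and 11.28 in control cells, 11.26, 11.34 and 11.01 with siRNA 1, and 11.16 and 11.22 with siRNA 2. One array, siRNA 1 replicate 3, stood 0.217 below the mean of all arrays, while siRNA 1 replicate 2 was the highest. Rictor differed from control by -0.071 for the average of both siRNAs (SE 0.075, 95% interval -0.24 to 0.098, adjusted p = 0.847 in limma). That average was -0.022 without siRNA 1 replicate 3, -0.042 and -0.107 without control replicates 1 and 2, and -0.168 without siRNA 1 replicates 1 and 2. With siRNA 1 the difference was -0.066 (SE 0.084), and 0.031 without replicate 3. With siRNA 2 it was -0.076 (SE 0.094, adjusted p = 0.913 in limma). The array where Rictor was lowest was the siRNA 1 array where Akt1, Akt2 and Ppp3cb were highest.

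Mapkap1, the Sin1 subunit of mTORC2, had the tightest controls among the 9 together with Prr5. It read 10.34, 10.35 and 10.35 in control cells, 10.37, 10.19 and 10.28 with siRNA 1, and 10.28 and 10.30 with siRNA 2. That placed 4 of 5 siRNA arrays below every control and siRNA 1 replicate 1 above them. The average of both siRNAs differed from control by -0.065 (SE 0.052, 95% interval -0.181 to 0.051, adjusted p = 0.809 in limma). With siRNA 2 the difference was -0.06 (SE 0.064), with both arrays below all controls, as for 15.9% of all genes. Among the 9968 genes at or above the median expression, 2487 lay so.

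The Protor subunits did not differ from control beyond their spread either. Prr5, which binds Rictor, read 11.38, 11.41 and 11.41 in control cells, 11.44, 11.35 and 11.41 with siRNA 1, and 11.34 and 11.48 with siRNA 2. The siRNA 2 arrays were the lowest and the highest of all 8, and the average of both siRNAs differed by 0.005 (SE 0.051, 95% interval -0.109 to 0.12). Prr5l, its relative, was dim: it read 7.22, 7.27 and 7.11 in control cells, 7.33, 7.11 and 7.32 with siRNA 1, and 7.10 and 7.17 with siRNA 2. These values lie at the lower quartile of the arrays, and whether Prr5l was detected is not known. The average of both siRNAs differed from control by -0.002 (SE 0.066), and the siRNAs from each other by -0.12 (SE 0.082, adjusted p = 1 in limma).

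**Figure D3:**
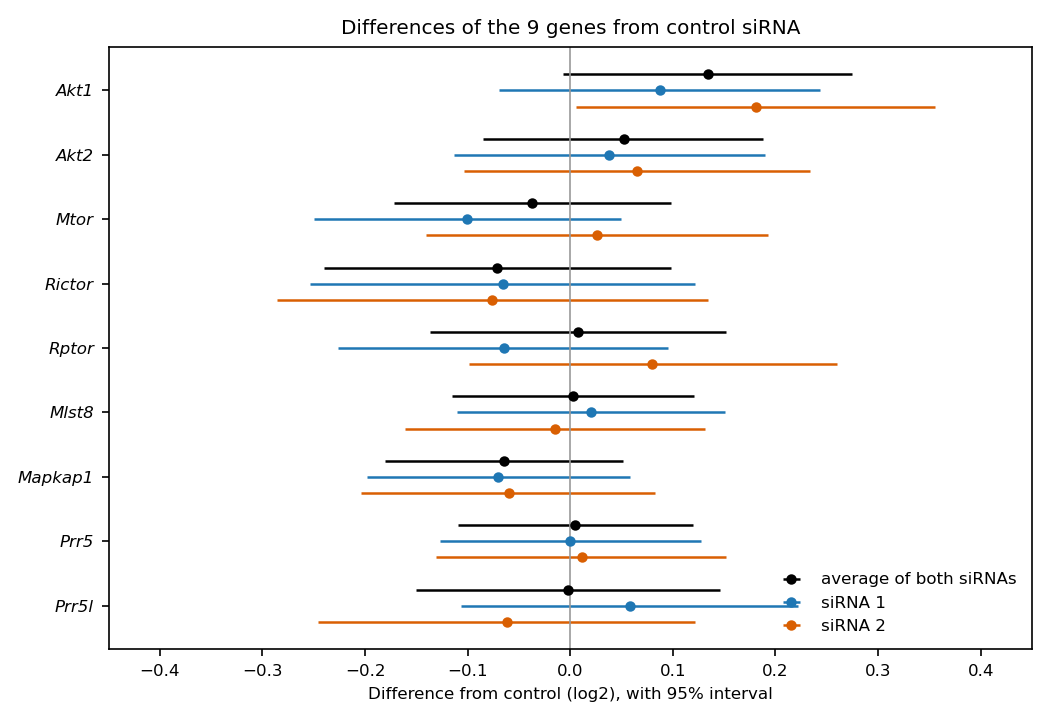
Difference from control siRNA (horizontal axis, log2) of each of the 9 genes for the average of both siRNAs, siRNA 1 and siRNA 2; points are limma estimates and lines their 95% intervals. The interval of Akt1 with siRNA 2, 0.006 to 0.355, is the one that leaves out 0, and its adjusted p was 0.812.

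Within each array, the balance between related members was compared with its mean in the controls. The difference Akt1 minus Akt2 lay at -0.08, 0.02 and 0.06 in control cells, at 0.14, -0.03 and 0.03 with siRNA 1, and at 0.10 and 0.13 with siRNA 2. It was above every control on 3 of 5 siRNA arrays. These values use the brighter Akt2 probe set, whose identifier lies among those of chromosome 11, and with the other one 4 of 5 siRNA arrays lay above every control. The difference Rictor minus Rptor, the scaffolds that set the complexes apart, lay at 0.03, -0.10 and 0.07 in control cells, at 0.00, 0.20 and -0.21 with siRNA 1, and at -0.06 and -0.25 with siRNA 2. On siRNA arrays it was above the controls once and below them 2 times, so it had no common direction.

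On single arrays several of the genes lay on the same side of their means. The share of all genes that did so was not counted, so these counts describe the arrays and not a trait of these genes. On siRNA 1 replicate 2, 8 of the 9 lay below their mean over all arrays, with a median deviation of -0.074, and Rictor was the exception. On siRNA 2 replicate 1, 7 of 9 lay below their means, while siRNA 2 replicate 2 held the highest value of 4 genes: Akt1, Mtor, Rptor and Prr5. On siRNA 1 replicate 1, 7 of 9 lay above their means. The lower quartile was highest on siRNA 1 replicate 2 (7.25) and siRNA 2 replicate 1 (7.19), and lowest on siRNA 1 replicate 1 (7.07). With that quartile in the fit Akt1 differed by 0.181 and Mapkap1 by -0.024 for the average of both siRNAs, and neither was called.

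**Figure D4:**
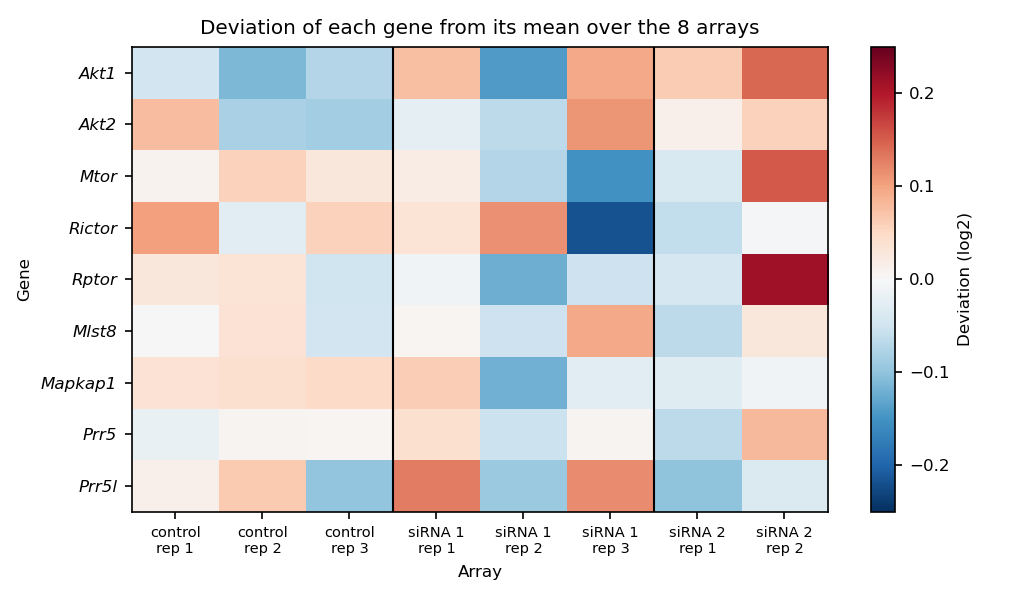
Deviation (colour, log2) of each of the 9 genes (rows) from its own mean over the 8 arrays (columns, groups parted by lines). Rictor at -0.217 on siRNA 1 replicate 3 and Rptor at 0.212 on siRNA 2 replicate 2 are the largest deviations.

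Promoter sequence is shown for Akt1 and Mapkap1, the members whose siRNA 2 arrays lay apart from all controls. They were chosen after their values were seen. All 9 genes matched RefSeq's promoter table (GRCm38.p6), and the window printed runs from 250 to 51 bases before the annotated start farthest upstream, 5′ to 3′ on the gene's strand. The Akt1 window is chr12:112674935-112675134 on the minus strand, and the Mapkap1 window is chr2:34406521-34406720 on the plus strand. Capitals mark matches on either strand to GGAAA, the core letters bound by NFAT, which calcineurin activates, and to GTAAACA, letters bound by FoxO factors, which Akt keeps out of the nucleus. The motifs do not overlap each other.
Akt1: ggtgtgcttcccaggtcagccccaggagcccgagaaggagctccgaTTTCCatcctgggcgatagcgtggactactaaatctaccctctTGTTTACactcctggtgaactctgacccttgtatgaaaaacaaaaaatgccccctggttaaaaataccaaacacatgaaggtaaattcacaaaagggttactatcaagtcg
Mapkap1: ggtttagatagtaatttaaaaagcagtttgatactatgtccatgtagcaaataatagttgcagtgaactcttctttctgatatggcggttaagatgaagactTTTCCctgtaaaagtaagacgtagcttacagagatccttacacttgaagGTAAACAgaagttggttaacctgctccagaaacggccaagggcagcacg
Each window holds 1 match to either motif. Among the 9 genes, GGAAA was found in 5 and GTAAACA in 2, these same genes. Of all 32851 promoter windows of this length 48.5% hold GGAAA and 2.58% hold GTAAACA. A match of letters is a description and not evidence of binding, and neither gene passed the test.

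The other components of the complexes lay near control. For the average of both siRNAs, Deptor, an mTOR inhibitor, differed by -0.031 (SE 0.052), Tti1 by -0.024 (SE 0.055) and Telo2 by 0.022 (SE 0.044), both of which help to assemble mTOR. Akt1s1, the mTORC1 inhibitor PRAS40 and an Akt substrate, differed by 0.009 (SE 0.055). Of these 4 genes 2 lay higher and 2 lower, and 0 were called.

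Genes upstream of Akt carry the signal from growth factor receptors through PI3 kinase. Of 17 tested, 10 lay lower and 7 higher for the average of both siRNAs, with a median of -0.023 and 0 called, where 43.9% of all genes and 60.5% of those at or above the median expression lay lower. Without siRNA 2 replicate 1 there were 8 lower and 9 higher, with a median of 0.004. Inpp5d (SHIP1), a phosphatase that removes the lipid recruiting Akt, read 11.23, 11.29 and 11.24 in control cells, 11.19, 11.11 and 11.05 with siRNA 1, and 11.10 and 11.16 with siRNA 2. All 5 siRNA arrays lay below all controls, as they did for 2.25% of all genes. Among the 9968 genes at or above the median expression, where Inpp5d lies, 352 lay so. The difference was -0.13 (SE 0.05, adjusted p = 0.769 in limma). The regulatory subunit gene Pik3r3 differed by -0.176 (SE 0.094; -0.059 with each array's lower quartile in the fit) and the catalytic subunit gene Pik3ca by -0.089 (SE 0.051), with siRNA 1 replicate 1 or siRNA 2 replicate 2 among or above the controls.

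Genes that control mTORC1 at the lysosome, among them the Rag GTPases, the Ragulator, GATOR and TSC complexes and the Sestrins, lay lower in 24 of 31 cases for the average of both siRNAs, with a median of -0.034. The median of all genes at or above the median expression was -0.017, and 60.5% of those lay lower. The count of lower genes was 18 with repeated quantile normalization and 15 with each array's lower quartile in the fit, where the median was 0. Of the 31, 0 were called, and 6 had an unadjusted p under 0.05, all lower, against 6.31% of all genes in either direction. Rragb, a Rag GTPase, read between 10.12 and 10.27 in control cells and between 9.96 and 10.11 on the siRNA arrays, a difference of -0.171 (SE 0.056, adjusted p = 0.769 in limma). Mios, a GATOR2 subunit, differed by -0.209 (SE 0.072; -0.128 with the quartile in the fit) and Sesn3, a Sestrin that FoxO factors induce, by -0.164 (SE 0.058). All siRNA arrays lay below all controls for 4 of the 31, these 3 among them, and for 2.25% of all genes. The 31 were all at or above the median expression, where 352 of 9968 genes lay so.

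Genes for mTORC1 substrates and translation lay higher in 9 of 12 cases, with a median of 0.028 and 0 called. Over all genes 11176 of 19935 lay higher, and 3939 of the 9968 at or above the median expression. With the arrays centred on their medians 7 of 12 lay higher, and without siRNA 2 replicate 2 there were 6 of 12. Ulk1, the kinase that starts autophagy and is inhibited by mTORC1, read 12.08, 12.04 and 12.05 in control cells, 12.10, 12.15 and 12.23 with siRNA 1, and 12.24 and 12.29 with siRNA 2. All siRNA arrays lay above all controls, as for 2.49% of all genes and for 173 of the 9968 at or above the median expression. The difference was 0.151 (SE 0.048, adjusted p = 0.769 in limma). Eif4ebp2, a translation repressor that mTORC1 phosphorylates, differed by 0.101 (SE 0.051), also with all siRNA arrays above the controls, and the lysosomal factor Tfeb by 0.05 (SE 0.053).

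Among the other kinases that mTORC2 phosphorylates, 7 of 10 lay lower, with a median of -0.057 and 0 called. Over all genes 43.9% lay lower, and of those at or above the median expression 60.5%. Prkcb, a conventional protein kinase C, read 8.60, 8.62 and 8.56 in control cells, 8.49, 8.40 and 8.35 with siRNA 1, and 8.40 and 8.46 with siRNA 2. The siRNA arrays all lay below the controls, as for 2.25% of all genes. Among the 9968 genes at or above the median expression, where Prkcb lies, 352 lay so. The difference was -0.171 (SE 0.05, adjusted p = 0.769 in limma). Prkce differed by -0.128 (SE 0.057; -0.082 with the quartile in the fit). Prkch, another protein kinase C gene, went the other way with siRNA 2 alone: it read 8.57, 8.66 and 8.48 in control cells, 8.55, 8.31 and 8.79 with siRNA 1, and 8.88 and 9.20 with siRNA 2. Its difference from control with siRNA 2 was 0.472 (SE 0.136, adjusted p = 0.794 in limma), and 0.222 when its probe sets were averaged. The test of siRNA 2 against siRNA 1 gave 0.493 (SE 0.136, adjusted p = 1 in limma), the highest difference of all genes in that comparison. With its probe sets averaged this was 0.228. Prkch has 2 probe sets, and both rises rest on the brighter one, since averaging with the other brought each down.

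Genes for Akt substrates lay lower in 9 of 13 cases, with a median of -0.009 and 0 called. For comparison, 43.9% of all genes lay lower, and 60.5% of those at or above the median expression. With repeated quantile normalization 6 of 13 lay lower and the median was 0.008. Bad, a death-promoting protein that Akt inactivates, read 8.20, 8.24 and 8.18 in control cells, 8.36, 8.46 and 8.31 with siRNA 1, and 8.34 and 8.28 with siRNA 2. It lay above all controls on all siRNA arrays, as did 2.49% of all genes. The difference was 0.135 (SE 0.051, adjusted p = 0.769 in limma). Pea15a differed by -0.165 (SE 0.073; -0.085 with the quartile in the fit) and Tbc1d4, the glucose transport regulator AS160, by -0.125 (SE 0.057). Of 19 FoxO target genes, most of which FoxO factors induce and a few, such as Ccnd1 and Ccnd2, repress, 12 lay higher and 7 lower, with a median of 0.015 and 0 called. The split was 9 higher and 10 lower without control replicate 2, without siRNA 2 replicate 2, with the quartile in the fit, and for siRNA 2 alone. For siRNA 1 alone it was 15 higher and 4 lower. Over all genes 41.4% lay lower with siRNA 1 and 47.1% with siRNA 2. Gadd45b differed by 0.208 (SE 0.091), Pck1 by 0.191 (SE 0.097; 0.087 with the quartile in the fit) and Ccnd2 by -0.116 (SE 0.057), each without a clean separation of the siRNA arrays from the controls.

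**Figure D5:**
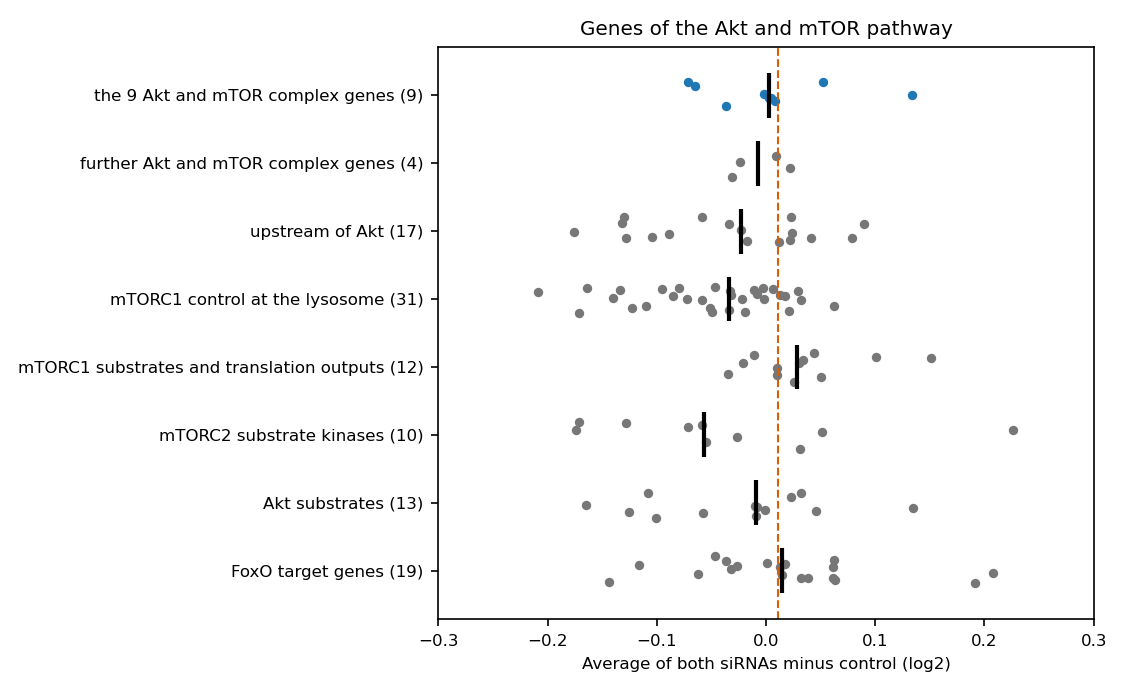
Difference between the average of both siRNAs and control (horizontal axis, log2) of every tested gene in each list (rows, number of genes in brackets); points are genes, black bars list medians and the dashed line the median of all genes, 0.011. The medians lie between -0.057 and 0.028.

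The genes whose values followed Akt1 most closely over the 8 arrays were Arhgef1 (Pearson's r 0.975), Jmjd4 (0.973) and Sh3rf1 (0.972), among 9697 genes of at least median expression, 60 of which had an r over 0.9. Those nearest to Rictor were Spen (0.964), Cnot6 (0.953) and Rsbn1 (0.945), with 15 genes over 0.9. These were picked as the highest of many over few arrays that share a normalization. Arhgef1 differed from control by 0.13 (SE 0.06, adjusted p = 0.769 in limma) for the average of both siRNAs and Spen by -0.026 (SE 0.067, adjusted p = 0.943 in limma).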

How the data were processed

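Per the submitters' processing notes, the authors made the deposited log2 values with RMA, which evens out the distributions of the arrays and so hides any shift common to most genes; its version is not given in the sources used here. Among 28815 probe sets, 21780 carried a single gene symbol in the platform annotation, 1605 several and 5430 none listed. Each gene was read from its brightest single-symbol probe set (mean of the 8 arrays). Groups came from the sample titles. Limma 3.58.1 in R 4.3.3 (lmFit, eBayes) was fitted to all 8 arrays with a coefficient for each group. The 4 two-sided comparisons set each siRNA, and their average, against control and the siRNAs against each other. P-values were adjusted by Benjamini-Hochberg over 19935 genes, and a call needed an adjusted p under 0.05. The procedure was tested on simulated data with independent noise, which lack any shift shared by the genes of an array. In each list the 3 genes of lowest unadjusted p (average of both siRNAs), and any called, were named; all 9 members, Ppp3cb and all further complex genes were named too. The members and lists were chosen with earlier results of these data known. Replicate numbers were not used as pairs in the main fit, and the labels do not say whether they pair the arrays. Deviations of same-numbered arrays from their group means correlated between -0.547 and 0.219. Groups this small cannot decide it, since the deviations of the 2 siRNA 2 arrays mirror each other. Alternatives were other normalizations, a filter on dim genes, other moderation, array weights, other probe-set rules, fits to a pair of groups, a replicate block, each array's lower quartile as a covariate, and leaving out arrays. The other Akt2 probe set was added after the data were seen. Tables and plots used Python 3.11.15 (numpy 2.4.6, pandas 2.3.3, matplotlib 3.10.9).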

Additional observations from a re-analysis of the deposited data

How the results depend on the processing

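Over the 36 differences of the 9 genes, 18 kept their sign under every alternative run, 53 of 675 alternative values had the other sign, and 0 were called, with a lowest adjusted p of 0.0607 in limma (Mtor with siRNA 1 under array weights). Akt1 kept its sign for the average of both siRNAs, between 0.113 and 0.181, with limma adjusted p from 0.113 to 1, and Mapkap1 between -0.088 and -0.024. Over all genes limma called 0 in each comparison, except with array weights, where 14 were called for the average and 1436 for siRNA 1, and with trended robust moderation, where 3 were called between the siRNAs. Array weights gave siRNA 1 replicate 3 a weight of 3.564 and replicates 1 and 2 of 0.308 and 0.411; Ppp3cb was then called with siRNA 1, at 0.388 (limma adjusted p = 0.0355). With a replicate block 0 genes were called, 884 had an unadjusted p under 0.05 for the average against 1257 without it, and Akt1 differed by 0.145. Over all alternatives other than leaving out 1 array, the genes at an unadjusted p under 0.05 ran from 773 (from the filter, which tests fewer genes) to 4271 for the average, from 621 to 5791 for siRNA 1 (1063 as reported), up to 2295 for siRNA 2 (1211 as reported) and from 423 to 2090 between the siRNAs (893 as reported), highest under array weights except for siRNA 2. Leaving out 1 array gave 443 (without control replicate 2) to 3589 (without siRNA 1 replicate 1) for the average, 427 to 4006 for siRNA 1, 579 to 1979 for siRNA 2 (the same arrays) and 421 to 1579 between the siRNAs. The cause of these differences was not tested.

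The values that changed sign are these. For the average, they were Mtor (0.004), Tti1 (0.02) and Prr5l (0.054) with the lower quartile as covariate, and Rptor (-0.004), Mlst8 (-0.008), Prr5 (-0.006) and Akt1s1 (-0.002) with medians centred. Prr5l was 0.033 under array weights and 0.032 without siRNA 1 replicates 1 and 2. With siRNA 1 and medians centred, Mlst8 was -0.001 and Prr5 -0.021. With siRNA 2, Mlst8 was 0.016 after quantile normalization and 0.004 with the covariate. Between the siRNAs, Akt2 was -0.05 and Rictor 0.135 under array weights, -0.076 and 0.185 without siRNA 1 replicates 1 and 2, Rictor 0.011 with medians centred, and Mapkap1 0 with the covariate.

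Leaving out 1 array at a time moved the average difference of Mtor between -0.085 and 0.01, Rptor between -0.056 and 0.071, Mlst8 between -0.021 and 0.026, Prr5 between -0.031 and 0.042 and Prr5l between -0.048 and 0.034. For Deptor it ran from -0.052 to 0.001, for Akt1s1 from -0.018 to 0.032 and for Tti1 from -0.063 to 0.016. With siRNA 1 it ran from -0.013 to 0.092 for Akt2, -0.135 to 0.031 for Rictor, -0.019 to 0.054 for Mlst8, -0.021 to 0.026 for Prr5 and -0.029 to 0.254 for Ppp3cb. With siRNA 2 it ran from -0.069 to 0.121 for Mtor, -0.047 to 0.207 for Rptor, -0.062 to 0.032 for Mlst8 and -0.063 to 0.084 for Prr5. Between the siRNAs it ran from -0.01 to 0.078 for Akt2, -0.107 to 0.059 for Rictor, -0.082 to 0.012 for Mlst8, -0.036 to 0.054 for Mapkap1 and -0.063 to 0.084 for Prr5. A fit of only the groups compared gives no value for the average, and the filter on dim genes none for Prr5l, whose signal near the lower quartile limits what its values show.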
